A study of Mus musculus with 4 samples.

Results

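Matrix metalloproteinases (MMPs) are zinc proteases, secreted or held at the cell surface, that cut collagens and other matrix proteins. Most are made as inactive precursors, and the tissue inhibitors of metalloproteinases (TIMPs) block the active enzymes by binding to them. In the periodontal ligament, the collagen-rich tissue that ties the tooth root to its bony socket, collagen is made and removed throughout life. The genes described here are 6 MMP genes, Mmp2, Mmp3, Mmp11, Mmp13, Mmp14 and Mmp16, and 4 inhibitor genes, Timp1, Timp2, Timp3 and Timp4. They were chosen by name, through the RefSeq accession of their probes, and are 10 of the 22911 genes with a named probe on the array. Where a gene had more than 1 probe, the brightest over the arrays represented it.

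The mouse tissue bears the label PDL, short for periodontal ligament. There were 4 groups: Mkx-KO mice at 10 weeks of age, WT mice at 10 weeks, Mkx-KO mice at 4 weeks and WT mice at 4 weeks. Mkx-KO mice lack Mkx, which encodes Mohawk, a homeobox transcription factor that acts in tendons and ligaments. The labels give no allele, strain or sex and do not say how many mice a preparation held. Each group had 1 one-colour array and all 4 arrays lay on 1 slide, so there were no biological replicates and every difference describes these 4 arrays. The error given after ± is the technical error of the scanner software, about 0.20 on the log2 scale for most genes, and does not cover variation between mice. Per array it was 0.144 for Mmp2, Mmp13, Timp1, Timp2 and Timp3 alike, so for bright genes it is nearly a fixed value. Where a probe had several spots, the median standard deviation between them was 0.04 (log2) on each array. Tissue pieces hold many cell types, and fewer cells of a type cannot be told apart from less RNA per cell.

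The level of a gene is given as the log2 of its processed spot signal relative to the 75th percentile of its array, so that 0 is the 75th percentile and 1 unit is 2-fold. The scanner software called between 61.8% and 66.6% of spots well above background, and none was saturated. Mkx itself had processed signals of 108 in Mkx-KO and 553 in WT tissue at 10 weeks, and of 193 in Mkx-KO and 563 in WT tissue at 4 weeks. These are differences of -2.10 at 10 weeks and -1.65 at 4 weeks. Whether the Mkx probes lie in the deleted part of the gene is not given in the sources used here. All 10 markers of ligament fibroblasts were above background on all 4 arrays. The arrays also carried signal of other tissues. The summed signal of 8 nasal and olfactory markers, relative to the 75th percentile, was 699.9 in Mkx-KO and 563 in WT tissue at 10 weeks. At 4 weeks it was 1.496 in Mkx-KO tissue, where Cnga2 and Scgb1c1 were not well above background, and 179 in WT tissue.

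The stretch of 250 bases before the gene start was taken from RefSeq (GRCm38.p6) for 8 of the 10 genes. It is printed for 6 of these 8 genes, leaving out Timp1 and Timp2, 5′ to 3′ on the strand of the gene. Capitals mark matches, searched on both strands, to 3 short motifs: TGANTCA, the element bound by AP-1 (Fos and Jun proteins), TATAAA, the TATA box, and GGGCGG, the GC box. No 2 of the matches overlap.
Mmp3: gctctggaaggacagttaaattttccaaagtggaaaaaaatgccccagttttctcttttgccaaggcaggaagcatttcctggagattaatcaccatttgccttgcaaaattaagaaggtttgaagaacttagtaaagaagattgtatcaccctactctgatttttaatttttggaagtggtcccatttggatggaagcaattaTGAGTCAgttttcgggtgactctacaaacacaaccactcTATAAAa
Mmp13: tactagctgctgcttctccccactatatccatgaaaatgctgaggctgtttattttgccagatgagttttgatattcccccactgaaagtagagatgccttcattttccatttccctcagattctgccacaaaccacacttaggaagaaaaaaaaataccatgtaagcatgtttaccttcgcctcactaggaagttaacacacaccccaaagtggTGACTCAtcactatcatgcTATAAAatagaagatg
Mmp11: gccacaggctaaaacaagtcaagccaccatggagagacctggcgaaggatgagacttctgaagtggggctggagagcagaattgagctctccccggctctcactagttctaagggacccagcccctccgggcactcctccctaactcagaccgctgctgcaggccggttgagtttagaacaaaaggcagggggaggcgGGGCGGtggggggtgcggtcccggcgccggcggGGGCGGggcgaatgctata
Mmp14: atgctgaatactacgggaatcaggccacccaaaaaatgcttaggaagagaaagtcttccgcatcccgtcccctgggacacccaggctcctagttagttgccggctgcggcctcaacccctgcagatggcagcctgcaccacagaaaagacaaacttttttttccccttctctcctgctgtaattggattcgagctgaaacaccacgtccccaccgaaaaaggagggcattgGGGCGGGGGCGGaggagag
Timp3: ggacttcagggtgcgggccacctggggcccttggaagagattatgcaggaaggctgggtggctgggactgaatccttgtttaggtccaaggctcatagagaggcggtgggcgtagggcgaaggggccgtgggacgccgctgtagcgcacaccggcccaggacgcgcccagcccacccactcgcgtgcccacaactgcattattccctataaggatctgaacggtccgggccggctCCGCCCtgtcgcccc
Timp4: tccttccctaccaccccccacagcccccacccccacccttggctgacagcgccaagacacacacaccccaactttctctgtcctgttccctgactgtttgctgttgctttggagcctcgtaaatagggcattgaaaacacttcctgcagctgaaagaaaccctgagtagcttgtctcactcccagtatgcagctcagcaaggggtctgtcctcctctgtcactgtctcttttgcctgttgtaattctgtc
These stretches lie at chr9:7445572-7445821 (plus strand) for Mmp3, chr9:7272264-7272513 (plus) for Mmp13, chr10:75932503-75932752 (minus) for Mmp11, chr14:54431348-54431597 (plus) for Mmp14, chr10:86300162-86300411 (plus) for Timp3 and chr6:115252206-115252455 (minus) for Timp4. Among the 8 genes with a sequence, Mmp3 and Mmp13 hold the AP-1 letters and, closer to the start, the TATA letters. In Mmp3 the AP-1 match ends 40 bases before the start and in Mmp13 it ends 29 bases before. Mmp11, Mmp14, Timp1, Timp2 and Timp3 hold GC box letters in this window, and Timp4 holds none of the 3 motifs. Of all 32851 promoter windows of the same length, 6.75% hold the AP-1 letters, 12.4% the TATA letters and 32.7% the GC box letters. G and C make up 37.6% of the Mmp3 window and 40.4% of the Mmp13 window, against 65.6% of the Timp3 window and a median of 52.4% over all windows.

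All 10 genes were called well above background on all 4 arrays. The largest spread over the arrays was that of the inhibitors Timp4 and Timp3, followed by the membrane-bound protease Mmp14. The gelatinase Mmp2, the collagenase Mmp13, the membrane-type protease Mmp16 and the inhibitor Timp2 varied less. The plot of levels by array shows these patterns.

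**Figure D1:**
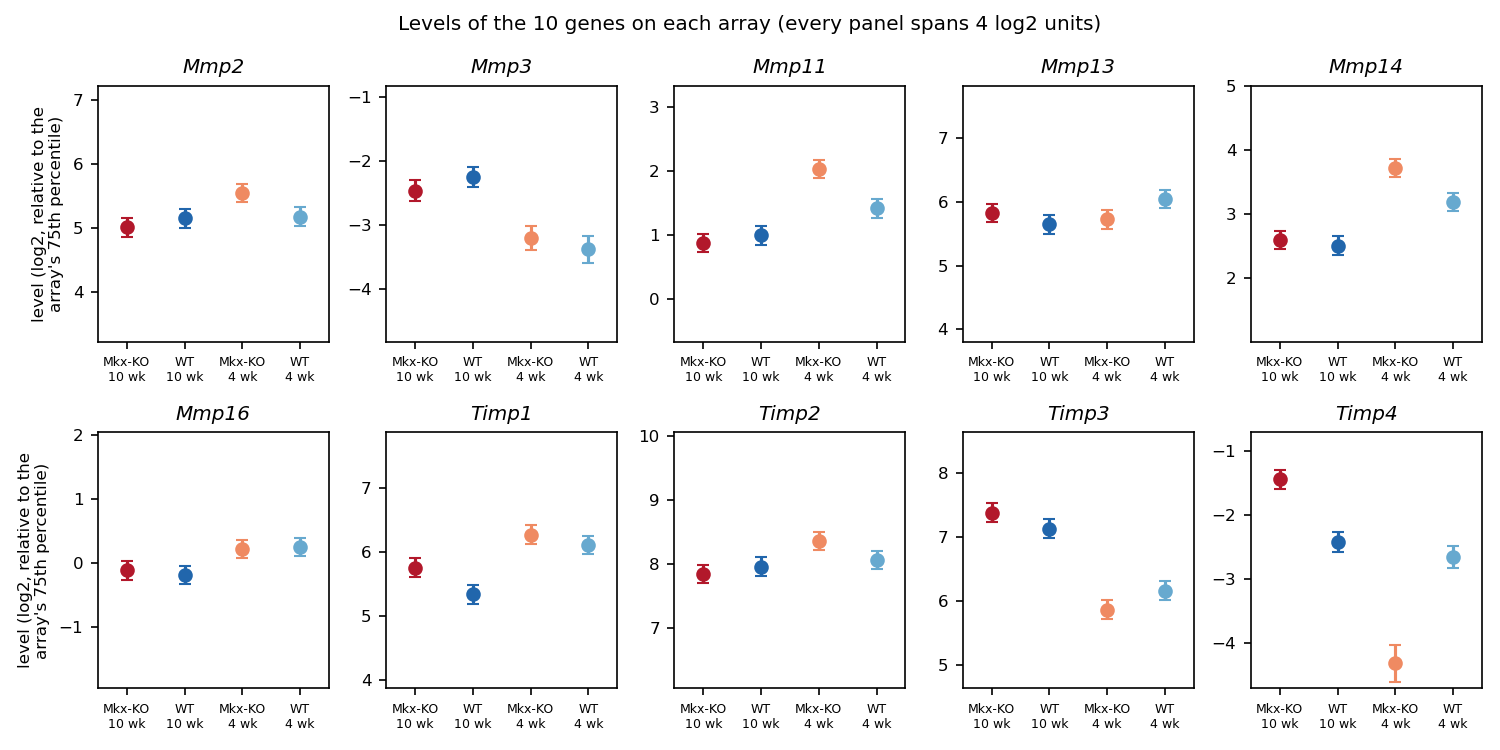
Levels of the 10 genes on the 4 arrays (log2, relative to the 75th percentile of each array), with the technical error of each spot. Timp3 and Mmp3 were higher at 10 weeks and Mmp14 lower in both genotypes, and Timp4 stood lowest in Mkx-KO tissue at 4 weeks.

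In Mkx-KO tissue, 4 of the 10 genes were at least 2-fold apart between 10 and 4 weeks, where 10.1% of all 15669 measured genes were, 6.25% higher and 3.84% lower at 10 weeks. Timp3 and Timp4 were higher at 10 weeks and Mmp11 and Mmp14 lower. In WT tissue 1 of the 10, Mmp3, was at least 2-fold apart and higher at 10 weeks, where 8.84% of 16102 measured genes were, 5.01% higher and 3.83% lower. The median age difference of the 10 genes was -0.42 in Mkx-KO and -0.25 in WT tissue, against -0.15 and -0.10 for all measured genes of each genotype. Centred on ligament fibroblast markers, the median of the 10 genes was -0.07 in Mkx-KO and -0.01 in WT tissue, and in the authors' scaled table it was -0.13 in Mkx-KO and 0.10 in WT tissue. Under both of these scalings the 2-fold genes in Mkx-KO tissue were Mmp3, Timp3 and Timp4, all higher at 10 weeks, and in WT tissue Mmp3 and Timp3. The fibroblast centring subtracts the median level of the 10 fibroblast markers on each array. This was 4.16 in Mkx-KO and 4.08 in WT tissue at 10 weeks, and 4.52 in Mkx-KO and 4.33 in WT tissue at 4 weeks. It lay between Col12a1 and Pdgfra at 10 weeks and between Col12a1 and Scx at 4 weeks. The markers' own age differences had a smaller median, -0.12 in Mkx-KO and -0.16 in WT tissue.

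Timp3 encodes the inhibitor that binds to the matrix and blocks ADAM and ADAMTS proteases as well as MMPs. Its level at 10 weeks was 7.38 in Mkx-KO and 7.13 in WT tissue. At 4 weeks it was 5.86 in Mkx-KO and 6.16 in WT tissue. Both arrays at 10 weeks lay above both arrays at 4 weeks. On the probe that represents the gene, the gap between the genotypes within each age was under 2 technical errors with the processing as reported. Over the settings, Mkx-KO minus WT ranged from 0.15 to 0.29 at 10 weeks and from -0.48 to -0.24 at 4 weeks. The difference of 10 minus 4 weeks was 1.51 ± 0.20 in Mkx-KO tissue, or 2.86-fold, and 0.97 ± 0.20 in WT tissue, or 1.96-fold, just under the 2-fold threshold. The second Timp3 probe gave 1.65 in Mkx-KO and 0.88 in WT tissue for age. For genotype it gave 0.33 at 10 weeks and -0.44 at 4 weeks, against 0.25 and -0.30 on the representing probe. The order of the 4 arrays was that of the neutrophil and skeletal muscle marker sums given with Timp4 below. Single markers departed from it: in WT tissue 6 of 8 neutrophil and 4 of 6 skeletal muscle markers were higher at 10 weeks. The median age differences of these lists in WT tissue were 0.32 and 0.12. The part of these cell types in the Timp3 values was not tested.

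Mmp3 encodes stromelysin, which cuts many matrix proteins and activates other MMP precursors. Its signal was dim, with processed signals of 46.8 in Mkx-KO and 64.6 in WT tissue at 10 weeks. At 4 weeks they were 31.0 in Mkx-KO and 25.5 in WT tissue. Both arrays at 10 weeks again lay above both at 4 weeks. The age difference was 0.74 ± 0.25 in Mkx-KO and 1.13 ± 0.26 in WT tissue. It is sensitive to how the background is treated: with normexp background correction it was 0.38 in Mkx-KO and 0.28 in WT tissue. Mmp10, the related stromelysin outside the 10 genes, had the same order of arrays, with levels of -0.70 in Mkx-KO and 0.15 in WT tissue at 10 weeks and -1.01 in Mkx-KO and -1.39 in WT tissue at 4 weeks.

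Mmp14 encodes a membrane-anchored collagenase that also activates the Mmp2 precursor. Its level at 10 weeks was 2.59 in Mkx-KO and 2.50 in WT tissue. At 4 weeks it was 3.72 in Mkx-KO and 3.19 in WT tissue. The arrays at 10 weeks were close together and both lay below the arrays at 4 weeks. The age difference was -1.13 ± 0.20 in Mkx-KO tissue, 2.18-fold lower at 10 weeks, and -0.68 ± 0.20 in WT tissue.

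Mmp11, a stromelysin that furin activates inside the cell, was likewise highest in Mkx-KO tissue at 4 weeks. Its level was 0.88 in Mkx-KO and 0.999 in WT tissue at 10 weeks. At 4 weeks it was 2.04 in Mkx-KO and 1.42 in WT tissue. The age difference was -1.16 ± 0.20 in Mkx-KO tissue, 2.24-fold lower at 10 weeks, and -0.42 ± 0.20 in WT tissue. Centred on the median level of ligament fibroblast markers, these Mkx-KO differences of Mmp14 and Mmp11 were smaller than 2-fold, at -0.77 and -0.81. They were also under 2-fold in the authors' scaled table, at -0.84 and -0.87. With quantile normalization Mmp14 was at -0.90 and Mmp11 at -1.01. For both genes the direction was the same in both genotypes under all 8 settings tried. The summed signal of 5 smooth muscle markers was 17.8 in Mkx-KO and 19.5 in WT tissue at 10 weeks, and 57.7 in Mkx-KO and 22.6 in WT tissue at 4 weeks. These markers did not move together: at 4 weeks Acta2 and Tagln were 1.63 and 1.22 higher in Mkx-KO than in WT tissue, while Des differed by -1.57 and Myh11 by -0.36, and another Acta2 probe gave 0.32. The summed signal of 4 endothelial markers was 7.57 in Mkx-KO and 6.79 in WT tissue at 10 weeks. At 4 weeks it was 9.06 in Mkx-KO and 8.21 in WT tissue. These markers also went both ways. At 4 weeks Cdh5 and Kdr differed by 0.25 and 0.19 between Mkx-KO and WT tissue, and Pecam1 and Tek by -0.08 and -0.23. In Mkx-KO tissue Tek was 0.31 higher at 10 than at 4 weeks, while the other endothelial markers were lower. The part of smooth muscle and of endothelium in the values of Mmp14 and Mmp11 was not tested.

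Timp1, an inhibitor of most secreted MMPs, was also lower at 10 weeks. Its level was 5.76 in Mkx-KO and 5.35 in WT tissue at 10 weeks, against 6.28 in Mkx-KO and 6.12 in WT tissue at 4 weeks. The age difference was -0.52 ± 0.20 in Mkx-KO and -0.77 ± 0.20 in WT tissue, both under 2-fold. Of the 6 MMP genes, 4 had a negative age difference in Mkx-KO and 5 in WT tissue. Of the 4 inhibitor genes, 2 had one in each genotype. Among all measured genes, 9769 of 15669 had a negative age difference in Mkx-KO and 9584 of 16102 in WT tissue. The signs of Mmp16 in Mkx-KO tissue and of Mmp2 and Timp2 in WT tissue turn with the scaling of the arrays.

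Mmp2, the gelatinase that Mmp14 activates with the help of Timp2, had an age difference of -0.54 ± 0.20 in Mkx-KO and -0.03 ± 0.20 in WT tissue. Timp2 gave closely similar values of -0.51 ± 0.20 in Mkx-KO and -0.10 ± 0.20 in WT tissue. In WT tissue the ranges over the settings were -0.05 to 0.33 for Mmp2 and -0.38 to 0.25 for Timp2. A second, dimmer Timp2 probe gave -0.65 in Mkx-KO and -0.66 in WT tissue, so the 2 probes differ for WT. Mmp16 had differences of -0.33 ± 0.21 in Mkx-KO and -0.44 ± 0.20 in WT tissue, with a range of -0.36 to 0.02 in Mkx-KO tissue over the settings.

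Mmp13 encodes the main interstitial collagenase of mice, which cuts fibrillar collagen. Its levels were 5.82 in Mkx-KO and 5.64 in WT tissue at 10 weeks, and 5.72 in Mkx-KO and 6.04 in WT tissue at 4 weeks. No neighbouring pair in this order was over 2 technical errors apart. The age difference was 0.10 ± 0.20 in Mkx-KO and -0.40 ± 0.20 in WT tissue. Mmp3 and Mmp13, the genes with the AP-1 and TATA letters printed above, had age differences of 0.74 and 0.10 in Mkx-KO and of 1.13 and -0.40 in WT tissue.

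**Figure D2:**
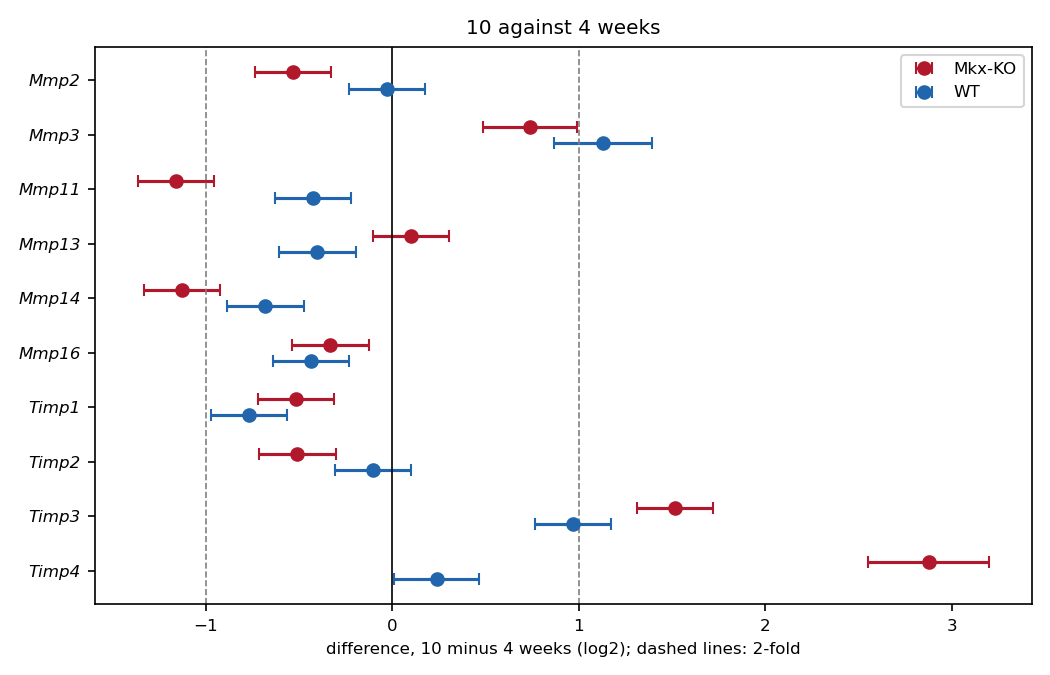
Difference of 10 minus 4 weeks (log2) for the 10 genes in Mkx-KO and in WT tissue, with the technical error of both spots and dashed lines at 2-fold. Timp4 stands at 2.88 in Mkx-KO and at 0.24 in WT tissue, and Timp3 and Mmp3 lie on the positive side in both genotypes.

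An additive fit of genotype and age over the 4 arrays (limma) put no gene past an adjusted p of 0.05 for age, 0 of 16795 or 0%, with 1 residual degree of freedom. Without adjustment, 4074 genes had a p under 0.05 for age, 24.3% of those tested, and 4 of the 10 genes were among them. Their age effects over both genotypes were 1.24 for Timp3, 0.93 for Mmp3, -0.90 for Mmp14 and -0.64 for Timp1. All 4 had limma adjusted p-values of 0.18. Over the other forms of the fit these ranged from 0.083 to 0.23 for Timp3 and from 0.12 to 0.25 for Mmp3, and from 0.10 to 0.25 for Mmp14 and 0.11 to 0.30 for Timp1. For genotype, 0 of 16795 genes passed and 455, or 2.71%, had an unadjusted limma p under 0.05; none of the 10 genes was among these.

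Between genotypes, 0 of the 10 genes were at least 2-fold apart at 10 weeks, where 2.41% of 16457 measured genes were, 1.04% higher and 1.37% lower in Mkx-KO tissue. At 4 weeks 1 of the 10, Timp4, was at least 2-fold apart and lower in Mkx-KO tissue, where 3.78% of 15686 measured genes were, 0.472% higher and 3.31% lower. The median genotype difference of the 10 genes was 0.08 at 10 weeks and 0.17 at 4 weeks, against 0.01 and 0.06 for all measured genes.

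Timp4 encodes an inhibitor with a narrow range of tissues, known from heart, brain and fat. Its processed signal was 95.8 in Mkx-KO and 58.0 in WT tissue at 10 weeks. At 4 weeks it was 14.4 in Mkx-KO and 42.4 in WT tissue. Mkx-KO tissue thus held both the highest and the lowest value, and the WT arrays lay between them within 2 technical errors of each other. The genotype difference was 0.98 ± 0.21 at 10 weeks, 1.97-fold and just under the threshold, and -1.66 ± 0.33 at 4 weeks, 3.17-fold lower in Mkx-KO tissue. The age difference was 2.88 ± 0.32 in Mkx-KO tissue, or 7.34-fold, and 0.24 ± 0.23 in WT tissue.

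The genotype differences of Timp4 at 10 and 4 weeks were 2.64 ± 0.40 apart, and 0.845% of 15504 genes measured on all 4 arrays were at least as far apart. With 1 array per group this has no test over mice. All 4 signals of Timp4 are dim, and normexp background correction gave 0.50 at 10 weeks and -0.60 at 4 weeks for genotype, and 1.18 for age in Mkx-KO tissue. The second Timp4 probe gave 0.84 at 10 weeks and -1.30 at 4 weeks, but it was not well above background in Mkx-KO tissue at 4 weeks.

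Some marker lists of other cell types had the same arrangement as Timp4. All 8 neutrophil markers were higher in Mkx-KO than in WT tissue at 10 weeks and all 8 lower at 4 weeks, with median differences of 0.77 and -1.12. Their summed signal, relative to the 75th percentile, was 1169 in Mkx-KO and 855 in WT tissue at 10 weeks, and 346 in Mkx-KO and 686 in WT tissue at 4 weeks. All 6 skeletal muscle markers were higher at 10 weeks and all 6 lower at 4 weeks, with median differences of 0.52 and -1.42 and sums of 89.7, 63.4, 19.6 and 51.9 in the same order of arrays. Of the adipocyte markers, Adipoq (adiponectin) differed by 1.20 at 10 weeks and -1.77 at 4 weeks, Cidec by 0.05 and -0.69, and Lep by -0.02 and 0.17. Plin1 was above background only in Mkx-KO tissue at 10 weeks. The summed signal of the 4 adipocyte markers was 1.26, 0.858, 0.57 and 0.717 in the same order. All 8 nasal and olfactory markers were lowest in Mkx-KO tissue at 4 weeks. At 10 weeks 6 of these 8 were lower in Mkx-KO than in WT tissue, with a median difference of -0.34, and the higher sum in Mkx-KO tissue came from Obp1a at 0.82 and Lcn11 at 1.34. The part of these cell types in the Timp4 values was not tested.

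**Figure D3:**
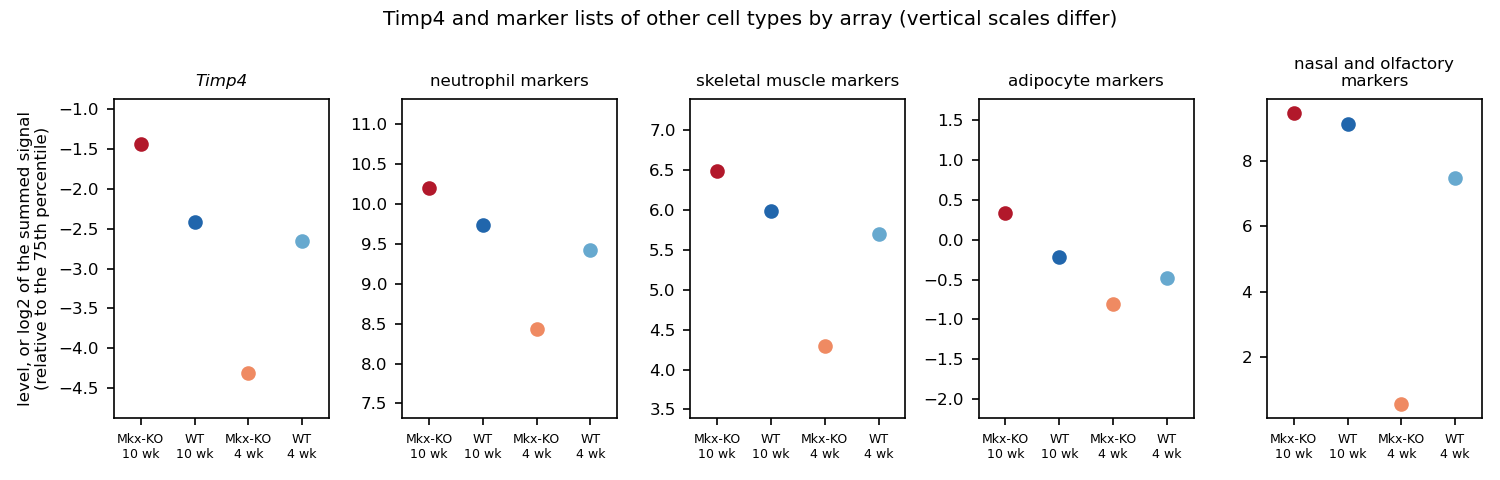
Level of Timp4 (log2, relative to the 75th percentile) and log2 of the summed signal of markers of neutrophils (8 genes), skeletal muscle (6), adipocytes (4) and nasal and olfactory tissue (8) on the 4 arrays, each panel on its own vertical scale. In every panel Mkx-KO tissue at 10 weeks was highest and Mkx-KO tissue at 4 weeks lowest, although 6 of the 8 nasal and olfactory markers were lower in Mkx-KO than in WT tissue at 10 weeks.

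For the 3 genes with the widest range, the genes of most similar pattern were sought among 15504 genes by the Euclidean distance of mean-centred log2 levels over the 4 arrays. For Timp4 they were Wfdc21 (distance 0.095), Ms4a3 (0.13) and Ctsg (0.14), of which Ctsg encodes cathepsin G, a protease of neutrophil granules. For Timp3 they were Zfp850 (0.11), Slc28a2 (0.11) and C3 (0.12), which encodes complement component C3. For Mmp14 they were Glis1 (0.022), Olfml3 (0.026) and Lrrc59 (0.042). With 4 arrays many genes share a pattern, and these distances are descriptions.

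Among the other 9 genes, which genotype differences were over 2 technical errors depended on the processing. As reported, they were those of Timp1 at 10 weeks and of Mmp11 and Mmp14 at 4 weeks. Over the settings, Timp1 at 10 weeks ranged from 0.34 to 0.43. At 4 weeks the ranges were 0.43 to 0.63 for Mmp11 and 0.35 to 0.60 for Mmp14. Those of Mmp13 and Timp3 at 4 weeks were -0.51 to -0.31 and -0.48 to -0.24. Mmp2 and Timp2 at 4 weeks had 0.18 to 0.41 and 0.11 to 0.42. Timp1 was 0.42 ± 0.20 higher in Mkx-KO than in WT tissue at 10 weeks and differed by 0.16 ± 0.20 at 4 weeks, a value that ranged from -0.02 to 0.18 over the settings. At 4 weeks Mmp11 was 0.62 ± 0.20 higher and Mmp14 was 0.53 ± 0.20 higher in Mkx-KO tissue. At 10 weeks the genotype difference was -0.12 ± 0.20 for Mmp11 and 0.09 ± 0.20 for Mmp14. For Mmp11 the genotype differences at 10 and 4 weeks were 2.55 technical errors apart, at -0.74 ± 0.29, and 12.2% of genes were at least as far apart. For the genes other than Mmp11 and Timp4 this gap was under 2 technical errors on the probes that represent them. The second Timp3 probe had genotype differences further apart, 0.33 at 10 weeks and -0.44 at 4 weeks, against 0.25 and -0.30. On the representing probes and with the processing as reported, Mmp2, Mmp3, Mmp13, Mmp16, Timp2 and Timp3 had genotype differences between -0.32 and 0.37.

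**Figure D4:**
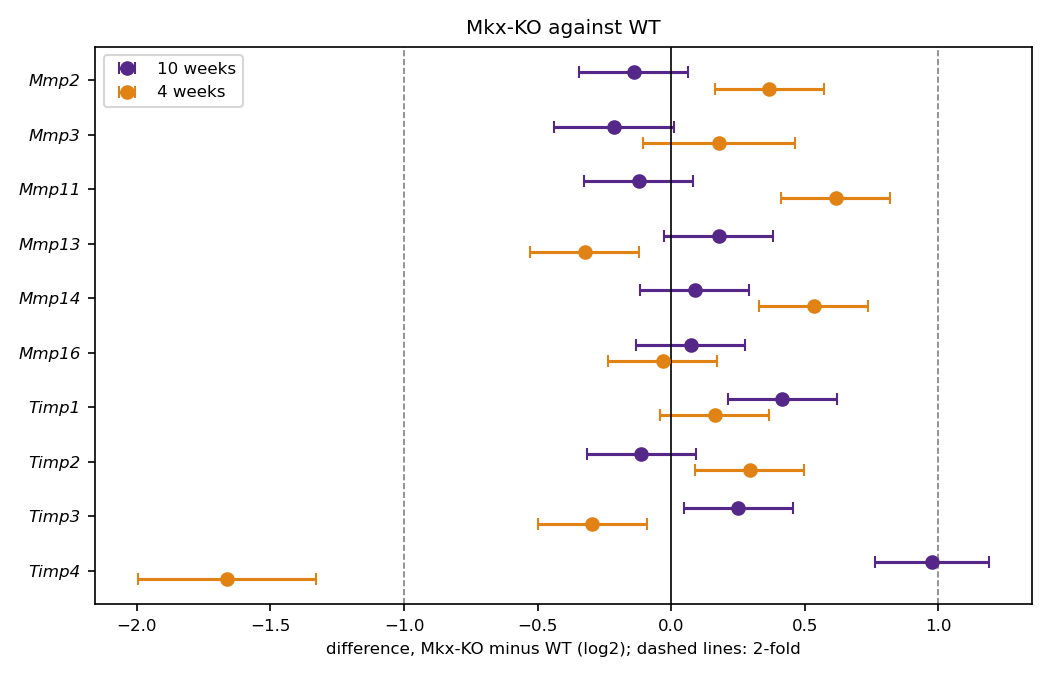
Difference of Mkx-KO minus WT (log2) for the 10 genes at 10 and at 4 weeks, with the technical error of both spots and dashed lines at 2-fold. Timp4 lies at 0.98 at 10 weeks and at -1.66 at 4 weeks, and the other 9 genes lie within 2-fold at both ages.

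Of 17 further MMP genes, 16 had a named probe, and 10 were above background in Mkx-KO tissue at both ages. Mmp1a, Mmp1b, Mmp7, Mmp21, Mmp24 and Mmp25 were not well above background on any array. Between genotypes, 0 of 9 measured genes were at least 2-fold apart at 10 weeks, against 2.41% of all measured genes. At 4 weeks 2 of 10 were, against 3.78% of all measured genes. These were Mmp15 at 1.01 ± 0.27 and Mmp8 at -1.34 ± 0.20. Mmp15 was at 0.32 with normexp correction and 0.83 when centred on fibroblast markers. Mmp8 encodes the collagenase of neutrophils. Its level was 2.61 in Mkx-KO and 1.95 in WT tissue at 10 weeks, and 0.24 in Mkx-KO and 1.59 in WT tissue at 4 weeks. That is the order of the neutrophil marker sums given above, although 2 of the 8 markers were lower at 10 than at 4 weeks in WT tissue. The part of neutrophils in the Mmp8 values was not tested.

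Between ages, 3 of 10 further MMP genes were at least 2-fold apart in Mkx-KO tissue and 2 of 9 in WT tissue. Of all measured genes, 10.1% were in Mkx-KO and 8.84% in WT tissue. In Mkx-KO tissue Mmp8 was 2.36 ± 0.20 higher at 10 weeks. Mmp23, a membrane-bound MMP, had -1.05 ± 0.20 in Mkx-KO and -0.74 ± 0.20 in WT tissue, and its Mkx-KO difference was -0.69 when centred on fibroblast markers and -0.76 in the authors' scaled table. Mmp20, the enamel protease of developing teeth, had -3.78 ± 0.30 in Mkx-KO tissue. In WT tissue Mmp20 was not well above background at 10 weeks and at least 18.5-fold lower than at 4 weeks, with the lowest level called above background as the bound. The 6 markers of ameloblasts and odontoblasts, the cells that build enamel and dentine, went both ways between the ages. In Mkx-KO tissue Ambn had -3.36, Dspp -3.01, Klk4 -1.09 and Odam -0.67, while Amelx had 4.71 and Enam was at least 6.08-fold higher at 10 weeks. In WT tissue Ambn had -2.58, Dspp -3.84, Klk4 -1.14, Enam -1.11 and Amelx -1.63, and Odam had 1.52. The part of these cells in the Mmp20 values was not tested. In WT tissue Mmp9 had -1.68 ± 0.20 and Mmp10 had 1.54 ± 0.21.

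Mmp9 encodes a gelatinase that osteoclasts, among other cells, secrete. Its level was 3.64 in Mkx-KO and 2.70 in WT tissue at 10 weeks, and 4.26 in Mkx-KO and 4.38 in WT tissue at 4 weeks, lowest in WT tissue at 10 weeks. The summed signal of 7 osteoclast markers was 607 in Mkx-KO and 297 in WT tissue at 10 weeks, and 741 in Mkx-KO and 722 in WT tissue at 4 weeks. That of 7 macrophage markers was 68.7 in Mkx-KO and 52.4 in WT tissue at 10 weeks, and 90.8 and 86.1 at 4 weeks. Single macrophage markers went both ways: in WT tissue 4 were lower and 3 higher at 10 than at 4 weeks. Ctsk, the collagen-cutting cathepsin of osteoclasts, was also lowest in WT tissue at 10 weeks, with 7.94 in Mkx-KO and 7.27 in WT tissue, against 8.34 in Mkx-KO and 8.36 in WT tissue at 4 weeks. For Mmp10 the summed signal of 7 epithelial markers was highest in WT tissue at 10 weeks, at 821 against 448 in Mkx-KO tissue. It was lowest in WT tissue at 4 weeks, at 321 against 574 in Mkx-KO tissue. In Mkx-KO tissue this sum was lower at 10 than at 4 weeks, while Mmp10 was higher. Epcam was lowest in Mkx-KO tissue at 4 weeks, at -2.78 against -2.32 in WT tissue. Krt4 was lowest in Mkx-KO tissue at 10 weeks, at 1.03 against 1.06 in WT tissue at 4 weeks. The part of osteoclasts, of macrophages and of epithelium in the values of Mmp9, Ctsk and Mmp10 was not tested.

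Genes that activate or restrain MMPs were examined in a list of 12. In Mkx-KO tissue 2 of 11 measured were at least 2-fold lower at 10 weeks and none was 2-fold higher. Of all measured genes, 3.84% were lower and 6.25% higher there. In WT tissue 0 of 11 were 2-fold apart, against 8.84% of all measured genes. Plat, the tissue plasminogen activator, had -1.39 ± 0.20 in Mkx-KO and -0.90 ± 0.20 in WT tissue. Plaur, the urokinase receptor, had -1.16 ± 0.20 in Mkx-KO and -0.09 ± 0.20 in WT tissue. Plaur was also the 1 gene of this list that was 2-fold apart between genotypes, 1.02 ± 0.20 higher in Mkx-KO tissue at 4 weeks. At that age 3.78% of all measured genes were 2-fold apart between genotypes. Centred on fibroblast markers, both Plaur differences were under 2-fold, at -0.81 for age in Mkx-KO tissue and 0.83 for genotype at 4 weeks. The median age difference of the list, -0.29 in Mkx-KO and -0.03 in WT tissue, changed sign with the scaling of the arrays, to 0.07 in Mkx-KO and 0.21 in WT tissue when centred on fibroblast markers.

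Among 9 genes of MMP substrates, 3 were at least 2-fold lower at 10 weeks in Mkx-KO tissue and 2 in WT tissue, and none was 2-fold higher. Of all measured genes, 3.84% were at least 2-fold lower in Mkx-KO and 3.83% in WT tissue. Col4a1 and Col4a2 encode the chains of basement membrane collagen. Col4a1 had -1.36 ± 0.20 in Mkx-KO and -1.17 ± 0.20 in WT tissue. Col4a2 had -1.67 ± 0.20 in Mkx-KO and -1.04 ± 0.20 in WT tissue. Col5a1, a chain of the minor fibrillar collagen V, had -1.25 ± 0.20 in Mkx-KO and -0.56 ± 0.20 in WT tissue. The fibrillar collagen genes Col1a1, Col1a2 and Col3a1 differed by between -0.21 and 0.14. No substrate gene was 2-fold apart between genotypes at either age, against 2.41% of all measured genes at 10 weeks and 3.78% at 4 weeks. The median age difference of the list, -0.33 in Mkx-KO and -0.21 in WT tissue, was 0.03 in Mkx-KO and 0.04 in WT tissue when centred on fibroblast markers. With that centring and in the authors' scaled table, Col4a1 and Col4a2 stayed at least 2-fold lower in Mkx-KO tissue, but 0 substrate genes were 2-fold apart in WT tissue. Col4a1 in WT tissue was then at -0.93 and -0.82, Col4a2 in WT tissue at -0.79 and -0.68, and Col5a1 in Mkx-KO tissue at -0.90 and -0.96.

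**Figure D5:**
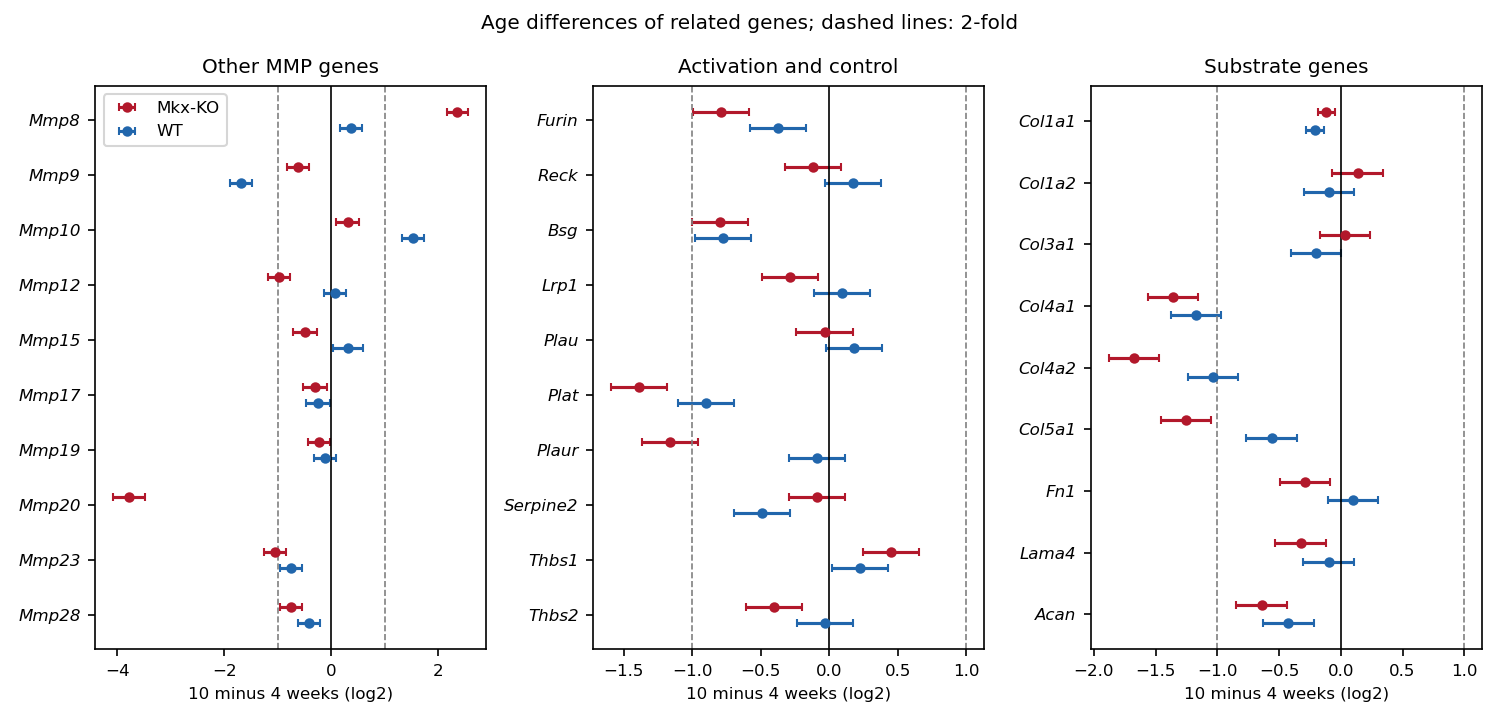
Difference of 10 minus 4 weeks (log2) in Mkx-KO and in WT tissue for other MMP genes, most genes that activate or restrain MMPs and substrate genes, with the technical error and dashed lines at 2-fold; horizontal scales differ between panels, and genes not above background on both arrays have no point. Mmp8 lies at 2.36 in Mkx-KO tissue, and Col4a1 and Col4a2 lie at least 2-fold lower in both genotypes; when centred on fibroblast markers or in the authors' scaled table they were under 2-fold lower in WT tissue.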

How the data were processed

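Per the file headers, the scan data hold spot intensity on a linear scale, read with Agilent Feature Extraction 11.5.1.1, whose processed signal is background-subtracted and spatially detrended. Per the labels, 0.1 ug of total RNA was labelled with Cy3. The deposited series table is also intensity: on each array it is a constant multiple, between 1.54 and 2.08, of the processed signal. The scan data also give the error of the processed signal.

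Of 56605 probes, 32994 (58.3%) were named through RefSeq (GRCm38.p6). The array design is annotated on mm9, so no probe positions are given. Spots of a probe were averaged on the log2 scale, outlier spots were left out, and levels were set relative to the 75th percentile per array. Measured genes were well above background on both arrays, and called genes at least 2-fold apart. No p-value was computed for a pair of single arrays. An additive model of genotype and age was fitted with limma 3.58.1 (R 4.3.3) to genes above background on 2 or more arrays. P-values were adjusted by Benjamini-Hochberg, and the fit was tested on simulated data. Python 3.11.15 ran the rest, with pandas 2.3.3, numpy 2.4.6 and, for plots, matplotlib 3.10.9.

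The 10 genes and all gene lists were chosen with earlier results of these data known. The text names all 10, Mkx, list genes at least 2-fold apart, up to 4 genes per list with the largest mean difference, and the 3 genes closest in pattern to the 3 most variable members. Col1a1, Col1a2, Col3a1, Mrc2, Cidec, Lep, Plin1 and the single markers of smooth muscle, endothelium, epithelium, teeth and nasal tissue were named after their values were seen. The values of 1 gene of the activation list are not reported here. Alternatives were normexp background correction (offset 50, on the median spot signal, since the mean is not among the columns), quantile normalization, other centrings, the authors' scaled values, the mean over probes, local brightness in windows of 11 by 11 spots, other filters and fold thresholds of 1.5 and 3.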

Additional observations from a re-analysis of the deposited data

Results flagged for a closer look

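Timp4 differed between genotypes in opposite directions at the 2 ages: Mkx-KO minus WT was 0.98 at 10 weeks and -1.66 at 4 weeks on the log2 scale. With 1 array per group, this contrast between the ages was not tested. Both of its probes gave this arrangement, although 1 was not well above background in Mkx-KO tissue at 4 weeks.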

How the results depend on the processing

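No paired analysis was possible because each group has 1 array, and no array can be left out of a comparison of single arrays. Of the counts of the 10 genes at least 2-fold apart, that for genotype at 10 weeks (0) became 1 with local brightness subtracted and 1 at a 1.5-fold threshold. The count for genotype at 4 weeks (1) became 0 with normexp correction and 2 at 1.5-fold. The count for age in Mkx-KO tissue (4) became 1 at 3-fold and 5 at 1.5-fold. It became 3 under quantile normalization, centring on ligament fibroblast markers and the authors' scaled values. Under quantile normalization Mmp14 fell under 2-fold, at -0.90. With the other 2 scalings Mmp11 and Mmp14 fell under 2-fold and Mmp3 passed it. The count for age in WT tissue (1) became 2 under quantile normalization, centring on ligament fibroblast markers, the authors' scaled values and subtraction of local brightness. It became 4 at 1.5-fold and 0 at 3-fold. With normexp correction it stayed at 1, but the gene was Timp3 instead of Mmp3, which was at 0.28. The share of all measured genes at 1.5-fold and 3-fold was not computed. By age in Mkx-KO tissue, 979 of 15669 genes were 2-fold higher and 601 lower as reported. These were 476 and 339 with normexp correction, and 1684 and 215 centred on fibroblast markers. In WT tissue 806 of 16102 genes were higher and 617 lower as reported. These were 416 and 289 with normexp correction, and 1256 and 374 with that centring. The additive limma fit put 31 genes past its threshold for age with normexp correction, 22 higher and 9 lower at 10 weeks, against 0 as reported. The cause of these changes was not tested. Of the alternative values for single genes, 225 moved by less than the technical error and 55 by more. Of the counts of 2-fold genes in the other lists, recomputed under these settings after seeing the data, 97 stayed within 1.5 times and 23 did not.

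Scaling matters most for age. The median age difference of all genes was -0.15 in Mkx-KO and -0.10 in WT tissue, against 0.14 and 0.26 in the authors' scaled values. It was 0.20 and 0.15 when centred on the median level of fibroblast markers. Between the ages that level shifted by more than the median of the markers' own differences, -0.12 in Mkx-KO and -0.16 in WT tissue. At 4 weeks that level was 4.52 in Mkx-KO and 4.33 in WT tissue, while the markers' own median genotype difference was -0.03. Of all genes called 2-fold apart by age, 62.0% in Mkx-KO and 56.6% in WT tissue were higher at 10 weeks, against 85.4% and 82.9% in the authors' scaled values and 88.7% and 77.1% when centred on fibroblast markers. For genotype at 10 weeks 43.2% were higher in Mkx-KO tissue, against 31.5% when centred on fibroblast markers. Relative to the median of all genes, these scalings leave the order of the genes as it was. Signal over background limits Mmp3 and Timp4, the dimmest of the 10.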

Other observations

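Transcription factors and cytokines known to act on MMP genes were examined in a list of 16 genes. In Mkx-KO tissue 2 of 14 measured were at least 2-fold lower at 10 than at 4 weeks and none was 2-fold higher. Of all measured genes, 3.84% were lower and 6.25% higher there. Jund, an AP-1 subunit, had differences of -1.26 ± 0.20 in Mkx-KO and -0.87 ± 0.20 in WT tissue. Il1b, the cytokine interleukin-1 beta, had -1.40 ± 0.20 in Mkx-KO and -0.48 ± 0.20 in WT tissue. In WT tissue 0 of 14 measured genes were 2-fold apart, against 8.84% of all measured genes. Between genotypes 1 gene was 2-fold apart, at 4 weeks, where 3.78% of all measured genes were. This was Fosl1, another AP-1 subunit, from dim signals. It was 1.13 ± 0.35 higher in Mkx-KO tissue at 4 weeks and 0.14 ± 0.35 higher at 10 weeks. Centred on fibroblast markers, Il1b stayed at least 2-fold lower in Mkx-KO tissue, at -1.04, while Jund was at -0.91 and Fosl1 at 4 weeks at 0.94, and Fosl1 was at 0.20 with normexp correction.

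Genes of collagen uptake and lysosomal breakdown were examined in a list of 10, all of them measured in every comparison. Between genotypes 0 were 2-fold apart at either age, against 2.41% of all measured genes at 10 weeks and 3.78% at 4 weeks. Itga11, a subunit of a collagen receptor of fibroblasts, had differences of 10 minus 4 weeks of -1.13 ± 0.20 in Mkx-KO and -0.59 ± 0.20 in WT tissue. Ctsk was the 1 gene 2-fold apart in WT tissue, where 8.84% of all measured genes were. It had -1.09 ± 0.20 in WT tissue, against -0.40 ± 0.20 in Mkx-KO tissue. The receptor gene Mrc2, which takes up collagen fragments, had -0.38 ± 0.20 in Mkx-KO and -0.33 ± 0.20 in WT tissue, under 2-fold in both. Centred on fibroblast markers, Itga11 in Mkx-KO tissue was at -0.78 and Ctsk in WT tissue at -0.85, under 2-fold.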
